A study of Mus musculus with 41 samples.

Results

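Amino acid transporter genes were followed through RNA measurements of fetal mouse lung. They were taken as every row of the deposited count tables whose symbol begins with Slc1a, Slc3a, Slc6a, Slc7a, Slc36a, Slc38a or Slc43a and goes on with a digit, which gave 64 of 24371 rows. By family, 7 rows were Slc1a, 2 Slc3a, 20 Slc6a, 16 Slc7a, 5 Slc36a, 11 Slc38a and 3 Slc43a. Of the 64, 61 encode carriers or carrier subunits, and Slc36a1os, Slc6a19os and Slc7a6os are neighbouring or antisense genes that share the name. Some carriers in these families move other solutes: Slc6a6 carries taurine, Slc6a8 creatine, Slc6a2 noradrenaline and Slc43a3 nucleobases.

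The study examined how glucocorticoids act on the fetal lung, and dexamethasone is a synthetic glucocorticoid. In the first set, dams carrying Twist2Cre;Rosa26mT/mG fetuses were injected at E18.5 with dexamethasone (1 mg/kg) or with saline, lungs were taken 2 hours later and pooled by genotype, and green, tdTomato-negative cells were sorted, giving 4 dexamethasone and 2 saline pools. All 6 pools carry the Cre, whose Twist2 promoter marks mesenchyme, and each mixes several fetuses. In the second set, the CD106+ fraction of E18.5 lung was sequenced after dexamethasone (1 library, labelled 1 mg/kg) and without a stated treatment (2 libraries), together with the CD106- fraction (2 libraries). CD106 is the adhesion molecule encoded by Vcam1. For these RNA fractions the labels name no strain, no injection time and no number of animals, and the depletion of CD45, CD31 and CD309 cells is described for chromatin samples that were not used here. In the third set, single cells were captured at E18.5 from wild-type C57Bl6/J lungs, 24 hours after dams received 2 mg/kg dexamethasone (15 cells) or saline (11 cells) at E17.5.

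Amino acids cross the cell membrane on carriers that differ in what they take and in what drives them. Sodium-coupled carriers such as the Slc38a family load glutamine, alanine and serine into the cell against a gradient, and exchangers such as Slc7a5 or Slc1a5 trade one amino acid for another. Several Slc7a carriers reach the membrane only when bound to the heavy chain encoded by Slc3a2. When amino acids run short, the kinase GCN2 raises translation of the transcription factor ATF4, which binds C/EBP-ATF composite elements near genes for transporters, Slc7a11 among them. Glucocorticoids act through a nuclear receptor whose dimer binds palindromic DNA, and fetal lung responds to them late in gestation.

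The mesenchymal pools held 1670896 to 4224245 estimated counts, the CD106+ and CD106- libraries 4987175 to 7133941, the treated CD106+ library 3790544 and the single cells 215623 to 1787997. Levels are given as CPM, estimated counts scaled to the library total, and are compared between samples only, since no transcript lengths were used. Of the 64 genes, 4 (Slc6a19os, Slc6a20a, Slc6a5 and Slc7a12) had no count in any bulk library or cell, and 30 reached 20 CPM in at least 1 bulk library. Not all marker genes checked followed the labels. Twist2 itself was at 0 to 0.901 CPM in the 6 mesenchymal pools. Fkbp5, a steroid-response gene, was at 176 to 260 CPM in dexamethasone pools and 28.7 to 40.7 CPM in saline pools. Tsc22d3, another, was at 125 to 172 CPM in dexamethasone pools and 40.7 to 56.3 CPM in saline pools. In single cells Fkbp5 ran from 0 to 612 CPM (median 0) after dexamethasone and 0 to 1064 CPM (median 2.02) after saline. Tsc22d3 ran from 0 to 1101 CPM (median 46.2) after dexamethasone and 10.4 to 1962 CPM (median 469) after saline. By the median, neither gene was higher in dexamethasone cells. Vcam1 stood at 551 and 687 CPM in CD106+ libraries, against 1.35 and 3.00 CPM in CD106- libraries. The CD106- libraries were rich in epithelial transcripts, with 15 epithelial markers summing to 5860 to 6366 CPM, and the CD106+ libraries also held 2787 to 4439 CPM of them. Epcam, the epithelial adhesion molecule, measured 205 and 198 CPM in the CD106+ libraries, against 492 and 341 CPM in the CD106- libraries. The mesenchymal pools had 12963 to 19011 CPM of 10 matrix fibroblast markers and Epcam at 0 to 11.7 CPM. Xist was at 6.59 to 11111 CPM in dexamethasone pools and at 20880 to 33133 CPM in saline pools, and the Y-linked gene Ddx3y was at 74.4 to 174 CPM in dexamethasone pools and 0 to 1.197 CPM in saline pools, so the pools also differed in the sex of their fetuses.

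**Figure D1:**
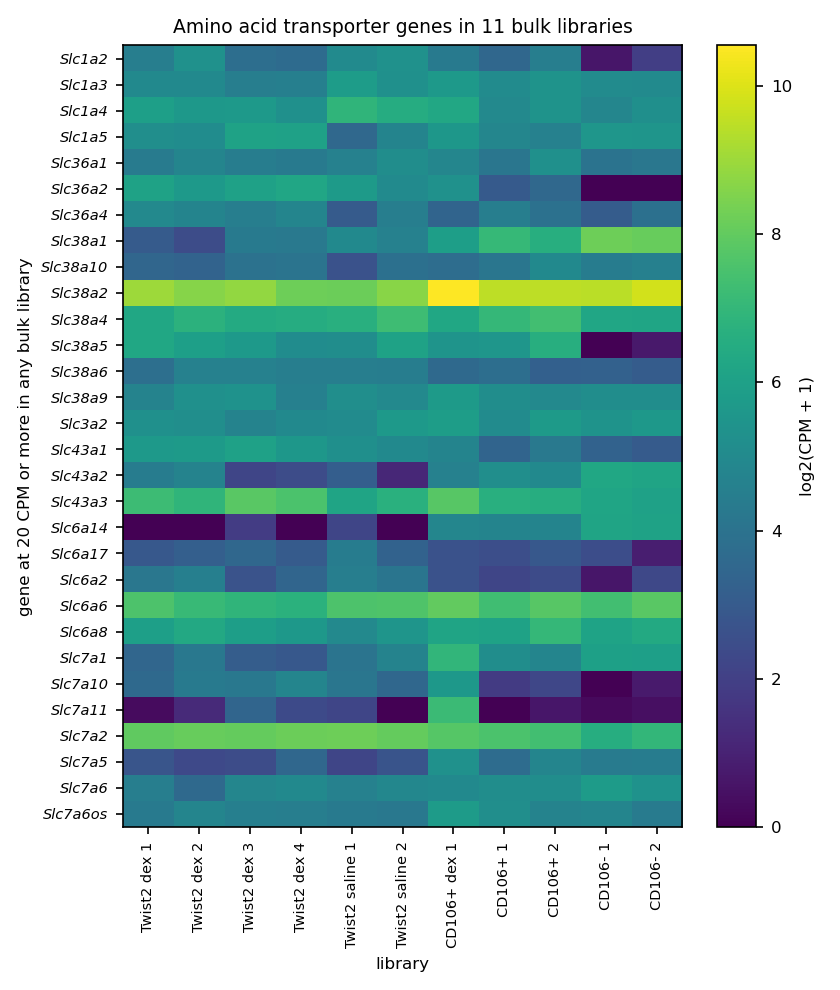
Level of each amino acid transporter gene that reached 20 CPM in any bulk library (30 genes, rows), as log2(CPM + 1) by colour, in the 11 bulk libraries (columns). The Slc38a2 row is bright in all libraries and brightest, at 1492 CPM, in the treated CD106+ library, while Slc38a5, Slc36a2 and Slc1a2 are dark in the CD106- columns.

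The promoter windows that bear on the results are given first. A window of 300 bases, from 250 before to 50 after an annotated transcript start, was available for 46 of the 64 genes (67 windows, since some genes have several starts; RefSeq, GRCm38.p6). Each was searched on both strands for ACANNNTGT, the core spacing of the glucocorticoid receptor palindrome, TGATGNAA, a form of the C/EBP-ATF composite element, and TATAAA. Of all 32851 windows in the table, 6.85% held ACANNNTGT, 3.97% TGATGNAA and 13.6% TATAAA, and among the 67 transporter windows the shares were 10.4% (7 windows), 5.97% (4) and 8.96% (6). A match describes the letters and does not show that a factor binds there. Capitals mark the matches, and positions count from the transcript start as base 0. The first window, at a start of Slc7a11 (chr3:50443564-50443863, minus strand), is shown because Slc7a11 was the gene that stood furthest apart in the treated CD106+ library. It holds TGATGNAA on opposite strands, beginning at -66 and -47. The second, Slc1a4 (chr11:20332664-20332963, minus strand), holds it at -4, and the third, the most upstream of 5 windows of Slc7a7 (chr14:54417895-54418194, minus strand), at -141 and -1. The fourth, Slc1a2 (chr2:102706188-102706487, plus strand), is shown for its difference between CD106 fractions and holds ACANNNTGT at -91. That difference has no stated treatment, and Slc1a2 was not called after dexamethasone in mesenchyme (log2 fold change -0.675, edgeR adjusted p = 0.58). The Slc7a11, Slc7a7 and Slc1a2 windows lie at starts inside the annotated span of the gene, not at its outer end. No printed match overlaps another.
Slc7a11: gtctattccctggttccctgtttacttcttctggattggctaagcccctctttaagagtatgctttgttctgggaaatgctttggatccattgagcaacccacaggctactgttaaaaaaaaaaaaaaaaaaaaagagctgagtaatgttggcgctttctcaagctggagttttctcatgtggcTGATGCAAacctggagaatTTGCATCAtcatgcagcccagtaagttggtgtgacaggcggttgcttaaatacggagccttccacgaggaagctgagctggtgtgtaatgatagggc
Slc1a4: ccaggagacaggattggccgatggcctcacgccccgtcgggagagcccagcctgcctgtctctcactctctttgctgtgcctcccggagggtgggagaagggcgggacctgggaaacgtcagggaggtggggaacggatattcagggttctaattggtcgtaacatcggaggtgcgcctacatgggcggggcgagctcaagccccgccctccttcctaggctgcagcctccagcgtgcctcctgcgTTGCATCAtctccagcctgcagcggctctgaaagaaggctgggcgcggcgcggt
Slc7a7: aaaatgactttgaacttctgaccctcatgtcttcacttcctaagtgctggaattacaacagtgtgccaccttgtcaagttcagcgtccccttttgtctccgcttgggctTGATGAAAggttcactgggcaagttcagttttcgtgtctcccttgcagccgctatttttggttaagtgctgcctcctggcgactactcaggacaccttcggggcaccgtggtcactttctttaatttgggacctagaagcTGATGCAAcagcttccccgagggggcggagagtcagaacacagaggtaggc
Slc1a2: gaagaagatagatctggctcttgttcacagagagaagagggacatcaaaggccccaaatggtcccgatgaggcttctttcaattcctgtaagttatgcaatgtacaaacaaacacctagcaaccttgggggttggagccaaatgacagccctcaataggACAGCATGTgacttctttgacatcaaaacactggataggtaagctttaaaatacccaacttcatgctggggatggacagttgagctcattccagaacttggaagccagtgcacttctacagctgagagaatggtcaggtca

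The first comparison asks which transporter genes separate the CD106+ fraction from the CD106- fraction, in libraries for which no treatment is stated. Of 35 genes with enough counts to test, 9 differed at an adjusted p under 0.05 (edgeR's quasi-likelihood test, Benjamini-Hochberg adjustment over all 12364 genes tested), 5 of them higher and 4 lower in CD106+ cells. Over all genes, 10.0% were called (6.67% higher, 3.35% lower). At an unadjusted p under 0.05 stood 13 of the 35, against 19.8% of all genes. The fractions did not overlap in 21 of the 35, beside 47.7% of all genes. DESeq2 called 8 of the 9 (9.73% of all genes), limma-voom called 9 (10.4%) and edgeR without a filter on low counts called 9 (8.71%). The other 29 genes were too low to test.

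Among sodium-coupled neutral carriers, 2 of 8 tested were higher in CD106+ cells and 1 was lower. Slc38a5 (chromosome X, 8271381 to 8280179), a carrier of glutamine, asparagine and histidine that exchanges protons for sodium, had 45.5 and 96.7 CPM in CD106+ libraries, against 0 and 0.666 CPM in CD106- libraries. Its 917 counts in CD106+ libraries stood against 4 in CD106- libraries, a 212-fold ratio of summed CPM (exact 95% interval 82.5 to 780 for counting error only; edgeR adjusted p = 1.1e-07). Slc38a4 (chromosome 15, 96994816 to 97055956), an imprinted carrier of neutral amino acids, had 130 and 161 CPM in CD106+ libraries, against 73.9 and 71.4 CPM in CD106- libraries. Both CD106+ libraries lay above both CD106- libraries (log2 fold change 0.95, SE 0.27, edgeR adjusted p = 0.020). Slc38a1 (chromosome 15, 96571418 to 96643438), a glutamine and alanine carrier, went the other way. It had 133 and 96.2 CPM in CD106+ libraries, against 299 and 275 CPM in CD106- libraries, with no overlap (log2 fold change -1.36, SE 0.29, edgeR adjusted p = 0.0020). Slc38a2, which lies between Slc38a1 and Slc38a4 on chromosome 15 and encodes a carrier of the same substrates as Slc38a1, had 719 and 727 CPM in CD106+ libraries and 707 and 911 CPM in CD106- libraries. Those ranges overlapped, and the test gave no call (log2 fold change -0.21, SE 0.32, edgeR adjusted p = 0.81). So of 3 neighbouring genes of the same family, 1 was higher in CD106+ cells, 1 was lower and 1 was not called.

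Among proton-coupled carriers, 1 of 3 tested was called. Slc36a2 (chromosome 11, 55158468 to 55185099), which takes up glycine and proline with protons, had 6.82 and 10.8 CPM in CD106+ libraries and no count in either CD106- library. Its 111 counts in CD106+ put it at least 34.2-fold higher, with 3 counts over the CD106- group as the floor (edgeR adjusted p = 8.8e-05). Among the 3 tested carriers of glutamate and aspartate, Slc1a2 (chromosome 2, 102658239 to 102790784), the main glutamate carrier of astrocytes, had 10.6 and 21.6 CPM in CD106+ libraries, against 0.577 and 2.83 CPM in CD106- libraries. It rose by 3.12 on the log2 scale (SE 0.68, edgeR adjusted p = 0.0029). Slc1a3, another glutamate carrier, had 33.1 and 41.2 CPM in CD106+ libraries and 32.9 and 31.6 CPM in CD106- libraries, and it was not called (edgeR adjusted p = 0.88).

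The 4 large neutral carriers gave 1 call in each direction. Slc7a8 (chromosome 14, 54722215 to 54781886), an Slc3a2-bound exchanger, had 2.81 and 3.50 CPM in CD106+ libraries, against 0 and 0.167 CPM in CD106- libraries. Its 39 counts in CD106+ stood against 1 in CD106- (36.1-fold, exact interval 6.10 to 1460; edgeR adjusted p = 0.014). Slc43a2 (chromosome 11, 75529915 to 75577575), a sodium-independent carrier of branched-chain amino acids and phenylalanine, had 36.1 and 30.8 CPM in CD106+ libraries, against 75.8 and 71.1 CPM in CD106- libraries. Both CD106+ values lay below both CD106- values (log2 fold change -1.17, SE 0.30, edgeR adjusted p = 0.011). Slc7a5, the other well known Slc3a2 partner of this class, had 12.4 and 26.9 CPM in CD106+ libraries and 20.2 and 20.5 CPM in CD106- libraries, and Slc3a2 itself had 33.1 and 52.3 CPM in CD106+ libraries and 41.9 and 48.4 CPM in CD106- libraries. Neither was called (edgeR adjusted p = 0.94 for Slc7a5 and 0.89 for Slc3a2).

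Slc6a14 (chromosome X, 21714900 to 21742358), a broad sodium- and chloride-coupled carrier of neutral and cationic amino acids found on the luminal side of epithelia, had 25.7 and 25.9 CPM in CD106+ libraries, against 71.4 and 65.6 CPM in CD106- libraries. It fell by 1.45 on the log2 scale (SE 0.31, edgeR adjusted p = 0.0023). Slc7a1 (chromosome 5, 148327410 to 148399904), the housekeeping arginine and lysine carrier, had 34.7 and 26.9 CPM in CD106+ libraries, against 63.1 and 60.1 CPM in CD106- libraries. It fell by 1.03 on the log2 scale (SE 0.32, edgeR adjusted p = 0.034). The related cationic carrier Slc7a2 had 186 and 162 CPM in CD106+ libraries and 93.3 and 124 CPM in CD106- libraries, without overlap but not called (log2 fold change 0.64, edgeR adjusted p = 0.18). The exchangers Slc1a4, Slc1a5 and Slc7a10 gave no call.

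**Figure D2:**
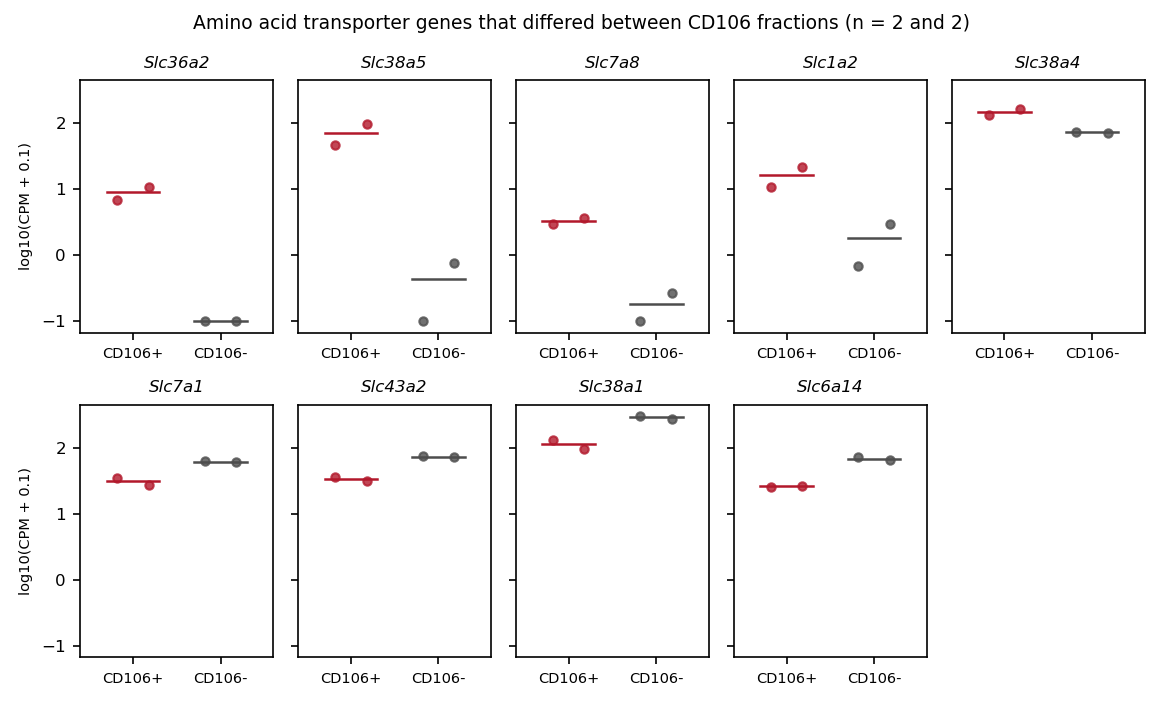
Level of the 9 called genes as log10(CPM + 0.1) in each CD106+ library (red, left) and each CD106- library (grey, right), with lines at the log of the group mean plus 0.1, and 1 vertical scale for all panels. In every panel the CD106+ points lie on 1 side of the CD106- points, and for Slc36a2 both CD106- points are at 0 counts.

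The calls did not all rest on every library. Slc38a5, Slc36a2 and Slc38a1 were called whichever library was left out (adjusted p up to 0.047). Without CD106- replicate 1 only those 3 of the 9 were called, and without CD106- replicate 2 there were 5 calls, with Slc38a4, Slc43a2, Slc7a1 and Slc7a8 lost. Without CD106+ replicate 2 there were 8 calls, with Slc7a1 and Slc7a8 lost and Slc7a2 gained, and without CD106+ replicate 1 there were 12, with Slc1a5, Slc36a1 and Slc6a8 gained. The share of all genes called in each of these fits is not given here. A shift common to all genes therefore cannot be told apart from one in the transporter genes. The fractions differed in the cells they held: matrix fibroblast markers summed to 4416 to 8962 CPM in CD106+ libraries and 489 to 617 CPM in CD106- libraries, and 8 endothelial markers to 95.6 to 122 CPM in CD106+ libraries and 14.8 to 20.4 CPM in CD106- libraries. In bulk samples, fewer cells of a type and less RNA per cell cannot be told apart. The share of each cell type in these differences was not tested. Nothing in the labels says that the libraries come from separate litters, so each p-value reflects variation between libraries that could be purely technical.

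The second comparison asks what 2 hours of dexamethasone did to the same genes in sorted mesenchyme. No transporter gene of the 35 tested passed an adjusted p under 0.05 by edgeR, while 2.69% of all 11356 genes did (1.95% higher, 0.74% lower). At an unadjusted p under 0.05 stood 6 of the 35 (17.1%), against 13.8% of all genes. The pools did not overlap in 9 of the 35, with 5 above and 4 below, where 23.0% of all genes did not overlap. A gene without a call is not shown to be unchanged at this number of pools. The median log2 fold change was -0.02 over the transporter genes and -0.01 over all genes. DESeq2 called 3 genes (4.51% of all genes), edgeR without a filter on low counts called 3 (3.11%), and limma-voom called 0 (2.82%).

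The 3 genes that DESeq2 called were Slc43a3, Slc1a4 and Slc1a5. Slc43a3 (chromosome 2, 84936545 to 84958509), a purine nucleobase carrier, had 150.3, 120.0, 227 and 188 CPM in dexamethasone pools, against 70.0 and 102 CPM in saline pools. Every dexamethasone pool lay above both saline pools (log2 fold change 1.06, SE 0.29, edgeR adjusted p = 0.054, DESeq2 adjusted p = 0.014). With dexamethasone pool 2 left out its edgeR adjusted p was 0.027, and over all pools left out in turn it was 0.027 to 0.31. Slc1a5 (chromosome 7, 16781334 to 16798274), the glutamine exchanger ASCT2, had 35.98, 33.6, 65.7 and 63.7 CPM in dexamethasone pools, against 10.8 and 26.3 CPM in saline pools. The groups did not overlap (log2 fold change 1.48, SE 0.43, edgeR adjusted p = 0.083, DESeq2 adjusted p = 0.027). Slc1a4 (chromosome 11, 20302180 to 20332713), the alanine, serine and cysteine exchanger ASCT1, lay on the other side, with 60.6, 47.6, 51.8 and 38.5 CPM in dexamethasone pools, against 118 and 90.1 CPM in saline pools (log2 fold change -1.01, SE 0.28, edgeR adjusted p = 0.063, DESeq2 adjusted p = 0.030).

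The other 3 genes at an unadjusted p under 0.05 stayed well above the adjusted threshold. Slc6a8, the X-linked creatine carrier, had 60.1, 81.9, 59.0 and 48.6 CPM in dexamethasone pools, against 30.5 and 44.0 CPM in saline pools (log2 fold change 0.81, SE 0.32, edgeR adjusted p = 0.24). Slc43a1, a carrier of branched-chain amino acids, had 51.6, 53.0, 64.4 and 47.5 CPM in dexamethasone pools, against 37.1 and 31.3 CPM in saline pools (log2 fold change 0.72, edgeR adjusted p = 0.32). Slc1a3 had 31.2, 30.9, 21.6 and 22.6 CPM in dexamethasone pools, against 56.3 and 38.7 CPM in saline pools (log2 fold change -0.77, edgeR adjusted p = 0.34). The groups did not overlap for any of these 3 genes. None of the 4 large neutral carriers was called, with fitted values of 0.48 to 1.70 on the log2 scale. The largest was for Slc43a2, with 20.6, 25.5, 3.60 and 4.53 CPM in dexamethasone pools and 7.78 and 1.23 CPM in saline pools. Slc43a2, Slc7a5 and Slc7a8 overlapped between treatments. The fitted value was -0.27 for Slc7a5 with Xist as a covariate, and -0.75 for Slc43a2 with the mean log CPM of chondrocyte markers as a covariate.

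Among genes high in these pools, Slc38a2 had 504, 399, 450 and 296 CPM in dexamethasone pools and 284 and 412 CPM in saline pools, and Slc7a2 had 246, 271, 267 and 285 CPM in dexamethasone pools and 295 and 266 CPM in saline pools. Both overlapped between treatments, with a fitted log2 fold change of 0.31 (SE 0.24) for Slc38a2 and -0.01 (SE 0.21) for Slc7a2. Slc38a5 and Slc36a2, which marked CD106+ cells, were present in all 6 pools. Slc38a5 had 77.2, 60.8, 49.5 and 34.3 CPM in dexamethasone pools and 34.7 and 66.6 CPM in saline pools, and Slc36a2 had 67.2, 50.6, 63.9 and 74.3 CPM in dexamethasone pools and 52.1 and 32.1 CPM in saline pools. Neither was called (edgeR adjusted p = 0.88 for Slc38a5 and 0.38 for Slc36a2). Slc7a11, the cystine and glutamate exchanger, had 0.237, 1.36, 9.91 and 4.15 CPM in dexamethasone pools and 3.59 and 0 CPM in saline pools, too scattered to rank.

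**Figure D3:**
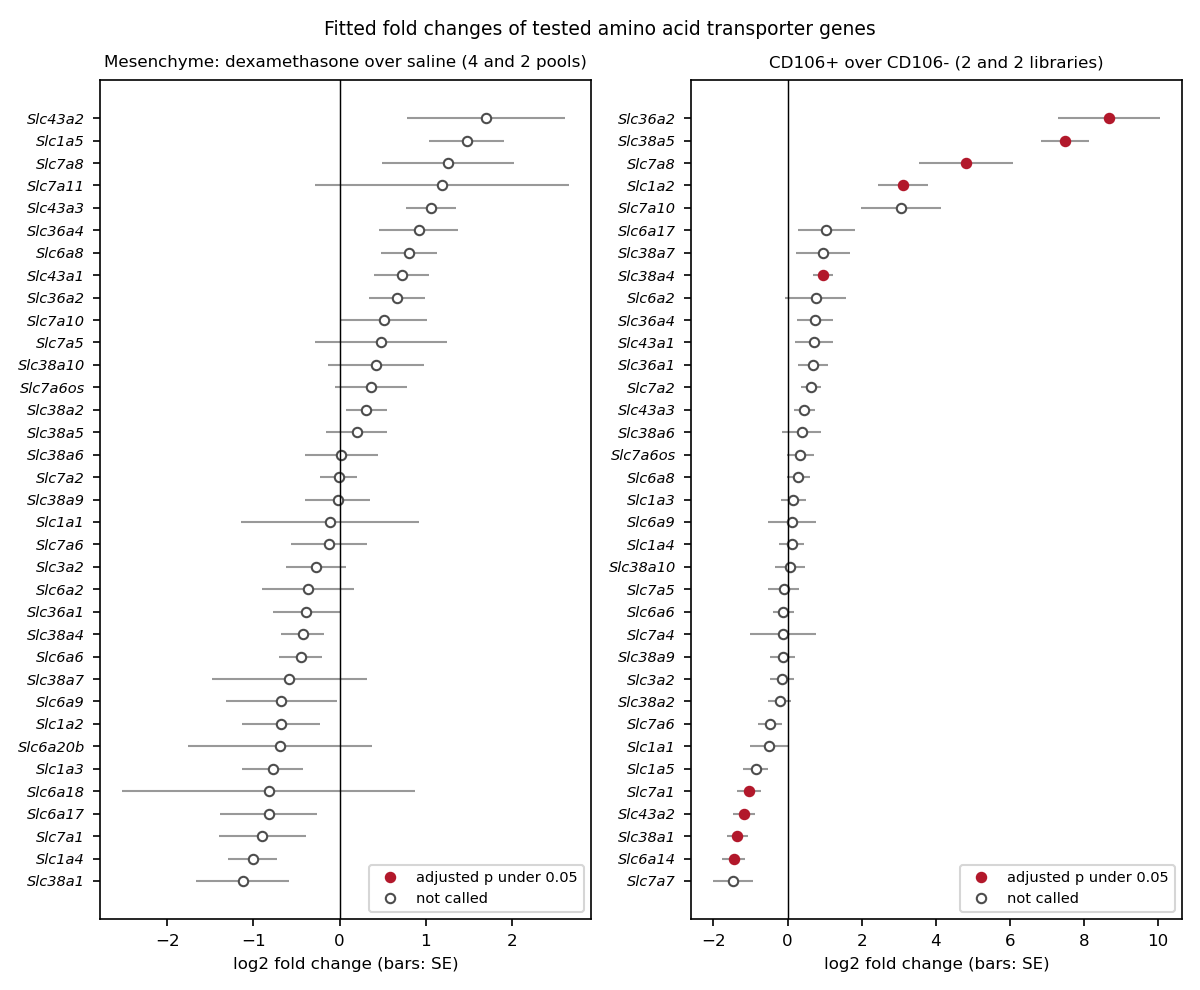
Fitted log2 fold change with its SE (bars) for the 35 transporter genes tested in each comparison, dexamethasone over saline mesenchyme on the left and CD106+ over CD106- on the right, with called genes in red. No gene is red on the left and 9 are on the right; the value for Slc36a2 on the right depends on the prior count, since CD106- had no count.

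Other measures moved with the treatment groups. Chondrocyte markers summed to 17.52 to 375 CPM in dexamethasone pools and 603 to 1443 CPM in saline pools, and 8 proliferation markers to 523 to 853 CPM in dexamethasone pools and 976 to 1601 CPM in saline pools. Adding Xist as a covariate gave 1 transporter call (Slc38a1), and adding the mean log CPM of the chondrocyte markers gave 0. Slc38a1 had 7.10, 4.42, 19.4 and 18.1 CPM in dexamethasone pools, against 31.1 and 23.9 CPM in saline pools, without overlap. With no covariate it was not called (log2 fold change -1.12, SE 0.54, edgeR adjusted p = 0.37). Its fitted value changed sign with the chondrocyte covariate. The part of sex and of cell makeup in the values above was not tested further.

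Genes that act around these carriers were tested in the same fits, in which 2.69% of all genes were called. The lists were chosen with earlier results of these data known, so their counts of calls are not independent evidence. Of 6 tested enzymes of glutamine and glutamate, 1 rose in dexamethasone pools and none fell: Glul, glutamine synthetase, at 1582 ± 321 CPM in dexamethasone pools and 213 ± 31.5 CPM in saline pools (SD, n = 4 and 2; log2 fold change 2.96, edgeR adjusted p = 1.5e-05). Of 13 tested genes on a list of amino acid sensors and mTORC1 components or regulators, 2 rose and none fell. Deptor, an mTOR inhibitor, stood at 217 ± 67.3 CPM in dexamethasone pools and 42.8 ± 14.0 CPM in saline pools (log2 fold change 2.41, edgeR adjusted p = 6.7e-04), and Sesn1, a leucine-sensor family member, rose by 1.15 on the log2 scale (edgeR adjusted p = 0.021). Of 16 tested genes of the amino acid response, 1 rose and none fell. It was Ddit4, an mTORC1 inhibitor, at 17.8 ± 6.72 CPM in dexamethasone pools and 2.95 ± 1.64 CPM in saline pools (log2 fold change 2.61, edgeR adjusted p = 0.033). None of 20 aminoacyl-tRNA synthetases and none of 6 other amino acid carriers was called, the nearest carrier being the aromatic amino acid transporter Slc16a10 (log2 fold change 1.15, edgeR adjusted p = 0.19). Between CD106 fractions, where 10.0% of all genes were called, the same lists gave 1 higher (Vldlr) and 1 lower (Atf3) of 20 response genes and 1 higher (Pycr1) of 8 enzymes. They also gave 1 higher (Farsa) of 20 synthetases, 0 of 8 other carriers and 1 lower (Deptor) of 14 genes of the mTORC1 list.

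The third comparison sets the dexamethasone CD106+ library beside the 2 CD106+ libraries with no stated treatment, called CD106+ libraries 1 and 2. With 1 treated library there was no test, and the values describe these libraries. Of 52 transporter genes with a count, 14 differed by more than 2-fold in CPM plus 1, all of them higher in the treated library. That is 26.9%, against 28.5% of all rows with a count, of which 13.2% were higher and 15.3% lower. At 20 CPM or more, 7 of 25 genes were past 2-fold, all higher, against 28.2% of all such rows (11.3% higher, 16.8% lower). Against CD106+ library 2 alone 15 genes were past 2-fold, 12 higher and 3 lower, and against CD106+ library 1 alone 20 were, 18 higher and 2 lower. Of all rows with a count and a promoter window, 13.0% were past 2-fold higher against library 2 and 17.0% against library 1. The transporter genes together summed to 3433 CPM in the treated library, against 2005 and 2250 CPM in CD106+ libraries 1 and 2.

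Slc7a11 (chromosome 3, 50364936 to 50499087), the exchanger that imports cystine for glutathione synthesis, had 144 CPM in the treated library, against 0 and 0.561 CPM in CD106+ libraries 1 and 2. Its 545 counts stood against 4, a 436-fold ratio with an exact 95% interval of 169 to 1605 for counting error. Slc7a10 (chromosome 7, 35186095 to 35201116), a carrier of small neutral amino acids and D-serine, had 47.6 CPM in the treated library, against 2.53 and 3.77 CPM in CD106+ libraries 1 and 2. Its estimated counts were not whole in 9 of 11 bulk libraries, so reads shared with other sequence may enter its level. Slc7a1 had 123 CPM in the treated library, against 34.7 and 26.9 CPM in CD106+ libraries 1 and 2, and Slc36a2 had 39.0 CPM in the treated library, against 6.82 and 10.8 CPM in CD106+ libraries 1 and 2. The remaining 3 had smaller ratios. Slc38a2 (chromosome 15, 96687392 to 96699728) had 1492 CPM in the treated library, against 719 and 727 CPM in CD106+ libraries 1 and 2. Slc43a3 had 225 CPM in the treated library, against 98.3 and 95.04 CPM in CD106+ libraries 1 and 2, and Slc1a4 had 79.4 CPM in the treated library, against 30.5 and 42.2 CPM in CD106+ libraries 1 and 2.

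Of the 7 below 20 CPM, Slc7a7, an exchanger of cationic and neutral amino acids, had 13.1 CPM in the treated library, against 4.17 and 6.07 CPM in CD106+ libraries 1 and 2. The other 6 had 5.01 CPM or less, and 5 of them had 4 to 19 counts in the treated library and none in CD106+ libraries 1 and 2. The 4 transporter windows with TGATGNAA belong to Slc7a11, Slc1a4 and Slc7a7, all among the 14. Against CD106+ library 2 alone, Slc1a4 and Slc7a7 were within 2-fold (log2 ratios of 0.90 and 0.995). Over all rows with a count and a window, 12.9% were past 2-fold higher, and of the 392 with TGATGNAA in a window 19.1% were. The overlap was noticed after the values were seen and was not tested. On the low side, Slc38a1 had 59.6 CPM in the treated library, against 133 and 96.2 CPM in CD106+ libraries 1 and 2, and Slc38a4 had 76.5 CPM in the treated library, against 130 and 161 CPM in CD106+ libraries 1 and 2, both within 2-fold of the mean of CD106+ libraries 1 and 2 after the pseudocount. Slc38a5 had 43.5 CPM in the treated library and 45.5 and 96.7 CPM in CD106+ libraries 1 and 2.

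**Figure D4:**
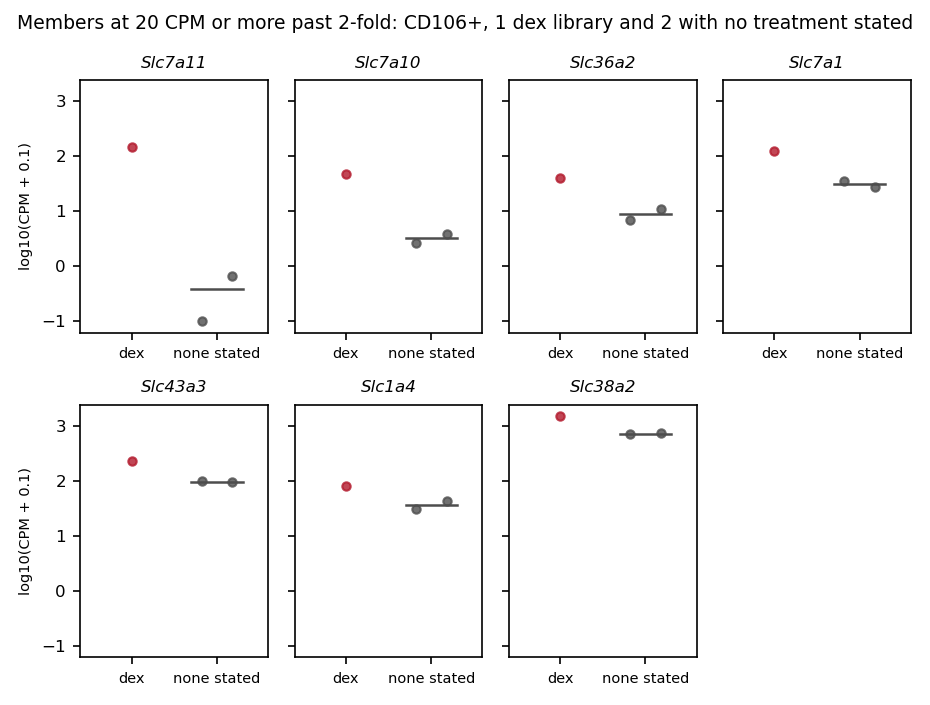
Level of the 7 genes at 20 CPM or more that were past 2-fold, as log10(CPM + 0.1), in the dexamethasone CD106+ library (red, 1 library) and the 2 CD106+ libraries with no stated treatment (grey, line at the log of their mean plus 0.1), with 1 vertical scale. The red point is above both grey points in each panel, with the widest gap for Slc7a11 (144 CPM against 0 and 0.561 CPM).

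Markers of other cells moved with this comparison. The endothelial gene Pecam1 had 508 CPM in the treated library, against 22.1 and 16.54 CPM in CD106+ libraries 1 and 2, and 8 endothelial markers summed to 2380 CPM in the treated library, against 95.6 to 122 CPM in CD106+ libraries 1 and 2. Immune markers summed to 106 CPM in the treated library, against 7.42 to 13.7 CPM in CD106+ libraries 1 and 2, and Epcam was at 27.4 CPM in the treated library, against 205 and 198 CPM in CD106+ libraries 1 and 2. Proliferation markers summed to 1486 CPM in the treated library, against 3882 to 5122 CPM in CD106+ libraries 1 and 2. Of the steroid-response genes, Fkbp5 had 49.6 CPM in the treated library, against 12.6 and 35.5 CPM in CD106+ libraries 1 and 2. Tsc22d3 had 70.7 CPM, against 32.9 and 35.7 CPM. Among genes of the amino acid response, Atf4 had 217 CPM in the treated library, against 80.0 and 106 CPM in CD106+ libraries 1 and 2, and Ddit4 had 57.5 CPM in the treated library, against 4.21 and 6.31 CPM in CD106+ libraries 1 and 2. Of the 11 response genes at 20 CPM or more, 2 were past 2-fold higher (Atf4 and Ddit4) and 1 lower (Aldh18a1), beside the 28.2% of all rows given above, and the median log2 ratio of the 11 was 0.19. Below 20 CPM, Chac1, Sesn2, Trib3, Cebpb, Nupr1, Mthfd2 and Ddit3 were past 2-fold higher, at log2 ratios of 1.11 to 2.765. No listed gene below 20 CPM was past 2-fold lower. Of all rows with a count, 13.2% were higher and 15.3% lower. The part of the endothelial, immune and proliferation markers, and of sort or batch, in the transporter values was not tested, and library and treatment cannot be told apart.

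The last comparison is of single cells 24 hours after injection. The labels name no animals, so each treatment is 1 sample and no test was made. A cell held 5 to 13 transporter genes with a count after dexamethasone and 2 to 14 after saline, with a median of 10.0 genes at a median depth of 852850 counts in dexamethasone cells and 11.0 genes at 1349765 counts in saline cells. In pooled cells, 18 of 36 genes with a count were past 2-fold in CPM plus 5, 8 higher and 10 lower after dexamethasone, where 48.0% of all rows with a count were past it (21.0% higher, 27.0% lower). At 20 CPM or more in either treatment, 13 of 18 genes were past 2-fold, 6 higher and 7 lower, against 62.1% of all such rows (28.2% higher, 33.9% lower). Most of them rest on single cells: in 10 of the 18, at least 95% of the counts of the higher treatment came from 1 cell. The genes described next are therefore limited to those seen in several cells of at least 1 treatment.

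Slc7a10 had a count in 12 of 15 dexamethasone cells (80.0%, exact 95% Clopper-Pearson interval 51.9 to 95.7%) and in 2 of 11 saline cells (18.2%, interval 2.28 to 51.8%). After thinning every cell to 215624 counts, 11 dexamethasone and 1 saline cells had one. Its level ran from 0 over a median of 37.5 to 3325 CPM in dexamethasone cells, and from 0 over a median of 0 to 76.2 CPM in saline cells. The pooled level was 283 CPM in dexamethasone cells and 6.59 CPM in saline cells, and 1 dexamethasone cell held 53.2% of the counts. The intervals treat cells as independent draws from 1 sample per treatment. They leave out variation between animals and do not test the treatment.

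Slc38a5 had a count in 11 of 15 dexamethasone cells and 8 of 11 saline cells, but it reached 10 CPM in 11 dexamethasone cells and 5 saline cells. Its median was 129 CPM (0 to 5076) in dexamethasone cells and 0.779 CPM (0 to 2024) in saline cells. Slc36a2 had a count in 10 of 15 dexamethasone cells and 6 of 11 saline cells, with a pooled level of 562 CPM in dexamethasone cells and 334 CPM in saline cells. Slc43a1 had a count in 5 of 15 dexamethasone cells (pooled 47.1 CPM) and in 0 of 11 saline cells, where the interval reaches 28.5%. Slc38a2, found in 13 of 15 dexamethasone cells and 10 of 11 saline cells, had a median of 74.2 CPM (0 to 2688) in dexamethasone cells and 579 CPM (0 to 1703) in saline cells, and a pooled level of 662 CPM in dexamethasone cells and 523 CPM in saline cells. Slc43a3 had a count in 5 of 15 dexamethasone cells and 9 of 11 saline cells. Its pooled level went the other way, at 204 CPM in dexamethasone cells and 118 CPM in saline cells. Of its dexamethasone counts, 90.9% lay in 1 cell. Slc3a2 had a count in 4 of 15 dexamethasone cells (pooled 9.91 CPM) and in 6 of 11 saline cells (pooled 66.0 CPM). The treatments overlapped in level for all of these genes.

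**Figure D5:**
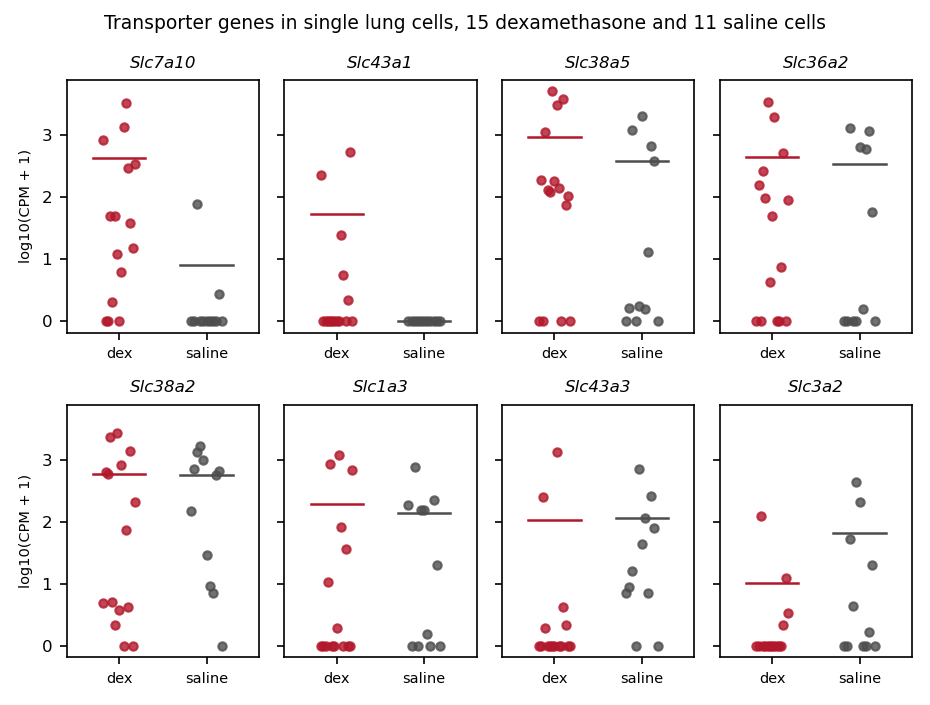
Level of 8 transporter genes as log10(CPM + 1) in each of 15 dexamethasone cells (red) and 11 saline cells (grey), with lines at the log of the mean CPM plus 1. Points at 0 are cells without a count; Slc7a10 has a count in 12 red and 2 grey points, and Slc38a2 in 13 red and 10 grey.

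The captured cells were not alike in type. Pecam1 reached 100 CPM in 1 of 15 dexamethasone cells and 5 of 11 saline cells, matrix fibroblast markers had medians of 29996 CPM in dexamethasone cells and 9032 CPM in saline cells, and Epcam was at 0 in all 26. Without cells at 100 CPM of Pecam1 or more, the log2 ratio of pooled CPM plus 5 was 4.20 for Slc7a10, against 4.63 with all cells, and 1.72 for Slc38a5, against 1.30. With the same cells left out, among named genes past 2-fold over all cells, Slc1a5, Slc38a7, Slc6a6, Slc7a2 and Slc7a8 no longer had the direction they had over all cells. Saline cell 7 held 100% of the saline counts of Slc38a7 and 78.75% of those of Slc6a6. Saline cell 10 held 99.9% of those of Slc7a8. Dexamethasone cell 9 held 63.3% of the dexamethasone counts of Slc1a5 and 70.95% of those of Slc7a2. These cells were among those left out, so the changes rest largely on single cells. Cells were not matched on fibroblast markers, and the part of cell type in any of these differences was not tested. No doublet caller was run on the 26 cells, a pair of cell columns carries the same index name with different values, and dexamethasone cell 14 carried 185048 CPM of erythroid transcripts.

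Slc7a10 was measured in all 3 sets. Dexamethasone pools of mesenchyme, 2 hours after injection, had 11.2, 18.6, 17.6 and 26.7 CPM, against 16.8 and 10.5 CPM in saline pools (log2 fold change 0.52, SE 0.50, edgeR adjusted p = 0.74). The sort differs between the bulk sets, no injection time is stated for the treated CD106+ library, and the single cells had another dose and time, so the values of the 3 sets stand side by side without a comparison.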

How the data were processed

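The tables cover 11 bulk libraries and 26 single cells of RNA. The authors deposited estimated counts per gene symbol in 4 tables, as the values show, since they need not be whole. Per the submitters' processing notes the build was mm10, and TopHat2, Bowtie2, Partek, Trim Galore, HOMER and MACS2 were named without a role; the counter and its use of strand were not given in the sources used here. The treated CD106+ column has a code found in no label, and it was assigned because no other sample's description names that table. Counts were rounded, filtered by filterByExpr, scaled by TMM and tested with edgeR 4.0.16 (R 4.3.3, limma 3.58.1, robust quasi-likelihood, Benjamini-Hochberg 0.05), each comparison fitted on its own groups. Ratios without a test used a pseudocount of 1 CPM (bulk) or 5 CPM (cells), and a count under 0.5 was read as none. Each test was first checked on simulated counts whose changes were known; most of the smaller changes were missed and false calls were more frequent than the nominal rate, in both comparisons. Replicates differed beyond sampling noise. The genes, lists and tests were chosen with earlier results of these data known. Genes named were those called, the 6 highest by mean in each fit, the 6 largest ratios at 20 CPM or more in each untested comparison and 10 fixed genes; others, such as Slc1a3 and Slc7a7, were named after their values were seen. Alternatives were other scalings, no filter, DESeq2 1.42.0, limma-voom, covariates, libraries left out, other pseudocounts and, chosen once the data had been seen, thinned cells and detection limits. Plots were made with matplotlib 3.10.9. Gene positions and sequences are from RefSeq, GRCm38.p6.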

Additional observations from a re-analysis of the deposited data

Results flagged for a closer look

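For 3 genes the dexamethasone values lay on opposite sides in the CD106+ library and in mesenchyme. The difference was not tested, the treated CD106+ group is 1 library, no injection time is stated for it, and the sort differs between the sets. Of 24 transporter genes tested in mesenchyme and at 20 CPM or more in the CD106+ set, 9 did not overlap in mesenchyme. Of these, 3 lay on the opposite side in the CD106+ set (12.5% of the 24, against 6.76% of all 7557 such genes), 5 lay on the same side (20.8%, against 12.7%) and 1 lay between the libraries. The 5 on the same side were Slc1a5, Slc38a1, Slc43a1, Slc43a3 and Slc7a6os. Slc1a4 had a log2 ratio of 1.11 in the treated CD106+ library, which lay above both CD106+ libraries with no stated treatment, while all 4 dexamethasone pools of mesenchyme lay below both saline pools. Slc6a6, the taurine carrier, had a log2 ratio of 0.42 in the CD106+ library (255 CPM in the treated library, against 157 and 224 CPM in CD106+ libraries 1 and 2), and its mesenchymal pools had 191.99, 136, 118 and 105 CPM after dexamethasone and 192.11 and 201 CPM after saline, the nearest pools differing by less than 1 CPM. Slc1a3 had a log2 ratio of 0.415 in the CD106+ library (49.9 CPM in the treated library, against 33.1 and 41.2 CPM in CD106+ libraries 1 and 2) and lay below both saline pools in all dexamethasone pools. Among the 35 tested genes, none had a dexamethasone pool standing apart from the other 3 by Dixon's criterion at its 95% critical value. That criterion looks for 1 pool apart and cannot show pools that differ in pairs. Slc1a5 had 35.98 and 33.6 CPM in dexamethasone pools 1 and 2, against 65.7 and 63.7 CPM in pools 3 and 4. Slc38a1 had 7.10 and 4.42 CPM, against 19.4 and 18.1 CPM, in the same pools, while Slc7a2 showed no such split. Slc43a2 was split the other way, with 20.6 and 25.5 CPM in pools 1 and 2, against 3.60 and 4.53 CPM in pools 3 and 4.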

How the results depend on the processing

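In mesenchyme the number of transporter calls by edgeR was 0 with DESeq2 size factors, the replicate block and the chondrocyte covariate and by limma-voom, 3 without a filter on low counts, 3 with DESeq2 and 1 with the Xist covariate, and 0 to 1 with a pool left out. Between CD106 fractions it was 9 with every other scaling, filter, limma-voom and the block, 8 with DESeq2, and 3 to 12 with a library left out. Same-numbered samples did not deviate together (correlations of -0.063 to 0.039), and over all genes the replicate block gave 154 calls in mesenchyme, against 306 without it, and 1276 between CD106 fractions, against 1239. In mesenchyme, dexamethasone pools 3 and 4 have no same-numbered saline pool. They add nothing to the treatment effect in the block fit, so its 154 calls rest on fewer pools and do not measure pairing. Over all genes the mesenchymal count was 598 without a filter, 512 with DESeq2, 186 with Xist and 27 with the mean log CPM of chondrocyte markers as covariate. In the treated CD106+ library the genes past 2-fold numbered 8 with a pseudocount of 5 CPM and 7 at 20 CPM or more, against 14; without CD106+ library 1 or 2 they numbered 15 and 20, of which 3 and 2 were lower. Single-cell counts were 13 to 23, against 18.

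The fitted log2 value changed sign under at least 1 setting for 18 of the 35 genes tested in mesenchyme and, only with a library left out, for 12 of the 35 tested between CD106 fractions, and none of these genes was called in that comparison. Among the genes named by rule, those in mesenchyme were Slc1a2 (0.35), Slc38a7 (0.34), Slc7a11 (-1.23) and Slc7a5 (-0.27) with the Xist covariate, and Slc38a1 (0.15), Slc38a5 (-0.36), Slc43a2 (-0.75) and Slc7a2 (0.088) with the chondrocyte covariate. Slc7a11 was at -0.70 with the replicate block, which leaves dexamethasone pools 3 and 4 out of the treatment effect. Slc7a2 was at 0.009 without a filter. With a pool left out Slc38a5 ranged from -0.129 to 0.705, Slc3a2 from -0.481 to 0.02 and Slc7a2 from -0.118 to 0.135. Between CD106 fractions, with a library left out, Slc1a4 ranged from -0.128 to 0.371, Slc38a2 from -0.427 to 0.024, Slc3a2 from -0.42 to 0.092, Slc6a6 from -0.381 to 0.197, Slc6a8 from -0.187 to 0.654 and Slc7a5 from -0.676 to 0.288. In cells without those at 100 CPM of Pecam1, Slc1a5 was at -0.48, Slc38a7 at 0.025, Slc6a6 at 0.22, Slc7a2 at -0.21 and Slc7a8 at 0, and without the top saline cell Slc38a11 was at 0, Slc38a7 at 0.022 and Slc6a6 at 0.85. The cause was not tested in any of these. Depth limits what can be said of 29 of 64 genes in either fit.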
